A study of Mus musculus with 24 samples.

Results

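MHCIIhi macrophages of the colon lamina propria (LP), the connective tissue under the gut epithelium, were compared with Ly6C-high monocytes of the same tissue across all genes. The comparison took 6 of the 24 RNA sequencing libraries of the series, chosen by their labels alone. Of these, 3 held F4/80hi MHCIIhi macrophages and 3 held monocytes, in each case from donors III, IV and V. All 6 came from the colon of C57/BL mice, and their labels call the tissue healthy. The study's methods describe dextran sodium sulphate, a colitis-inducing agent, for control C57BL/6J mice as well as for tumour mice. Whether the donors of these 6 libraries had received it is therefore not settled, and the labels give no age. Macrophages were sorted as F4/80hi cells with surface MHCII, and monocytes as Ly6C-high cells without it. A further 3 LP libraries of F4/80hi MHCIIlow macrophages (donors II, III and IV) were set beside them. The same step, from monocyte to MHCIIhi macrophage, a comparison of sorted populations with no lineage followed, was also measured in tumours of the colon. Their donors were Apc Min/+ mice, a strain with a germline Apc mutation that develops intestinal adenomas, and were given the same agent. It used 3 macrophage libraries (donors I, V and VII) and 3 monocyte libraries (donors I, II and V). Each library held sorted cells of pooled tissue, so a donor number stands for a pool of mice. The values are log2 RPKM, reads scaled to transcript length and library size on a log scale, and are given here as RPKM for single libraries, always in the order of donors III, IV and V for the LP step.

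Monocytes leave the blood through the chemokine receptor CCR2 and enter the gut wall, where they lose Ly6C, gain MHCII and become macrophages. Gut macrophages are known for taking up bacteria and dying cells, for presenting antigen locally, and for making interleukin-10 while responding weakly to bacterial products. Their precursors carry the opposite features, such as alarmins and a readiness to make inflammatory mediators. Fewer cells of a type and less RNA per cell cannot be told apart in such bulk samples, and the p values measure only the spread between these libraries.

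The transcripts behind the sort followed the labels, and since the cells were selected on these proteins their values check the labels and are no finding. Adgre1, which encodes F4/80, stood at 421, 446 and 458 RPKM in macrophages and 62.1, 57.4 and 63.1 in monocytes. H2-Eb1, a beta chain of MHCII, stood at 7562, 8888 and 9384 RPKM against 173, 158 and 165, H2-Aa at 4180.4, 4985 and 5672 against 173, 168 and 216, and H2-Ab1 at 8834, 9670.5 and 10544 against 406, 389 and 496. Ly6c2 (chromosome 15, GRCm38 75108158 to 75111970), one of the genes of the Ly6C antigen, stood at 0.331, 0.385 and 0.539 RPKM in macrophages and 43.2, 87.03 and 80.6 in monocytes. Other genes, mainly Ly6c1, hold 14.2% of the 51-base stretches of its transcripts. Ly6g, the neutrophil antigen, had 0 reads in all 3 macrophage libraries and 2, 22 and 4 reads in the monocyte libraries. In sums over marker lists, the 7 monocyte markers came to 27.0 to 29.4 RPKM in macrophages and 1038 to 1529.6 in monocytes. The 10 macrophage markers came to 4162 to 5383 RPKM in macrophages and 641 to 829.8 in monocytes, so that each sum put every library with its label.

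Transcripts of other cells differed between the groups as well, and most of them were higher in monocyte libraries. A list of 20 squamous keratinocyte genes, chosen after the values were seen, summed to 3691, 20.3 and 2183 RPKM in the monocyte libraries and to 54.6, 4.95 and 4.48 in the macrophage libraries. Krt14, a keratin of basal squamous cells, stood at 1211 RPKM in library III, 209 in library V and under 3 in library IV of the monocytes. Monocyte libraries III and V therefore stand apart from library IV and from the tumour monocytes, in which the list summed to 17.3 to 39.0 RPKM. Immunoglobulin segments, 172 genes, summed to 5038, 7658 and 16827 RPKM in monocytes and to 525, 248 and 630 in macrophages, with all 3 monocyte libraries above. The 16 neutrophil markers summed to 289 to 748 RPKM in monocytes and 57.7 to 64.3 in macrophages, against at least 15523 in LP neutrophil libraries. Of the 16, 10 were called lower in macrophages and 1 higher. A few genes made much of the monocyte sum, with Ltf at 475, 2.04 and 8.47 RPKM and Cd177 at 94.2, 94.04 and 97.2. Mmp9 went the other way, at 15.9 to 18.3 RPKM in macrophages and 1.66 to 2.21 in monocytes. The 12 epithelial markers summed to 227, 26.1 and 75.3 RPKM in monocytes and to 23.5, 8.99 and 10.2 in macrophages. The 11 dendritic cell markers, by contrast, came to 56.8 to 79.6 RPKM in macrophages and 38.6 to 46.9 in monocytes, and the 11 measured T and NK cell markers to 140 to 146 and 71.1 to 84.9. The part of these transcripts in the results was not tested. Counts over all genes and over each list are given also with LP monocyte library IV as the only monocyte library, which was decided after the data were seen and assumes that it varies like the other groups.

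**Figure D1:**
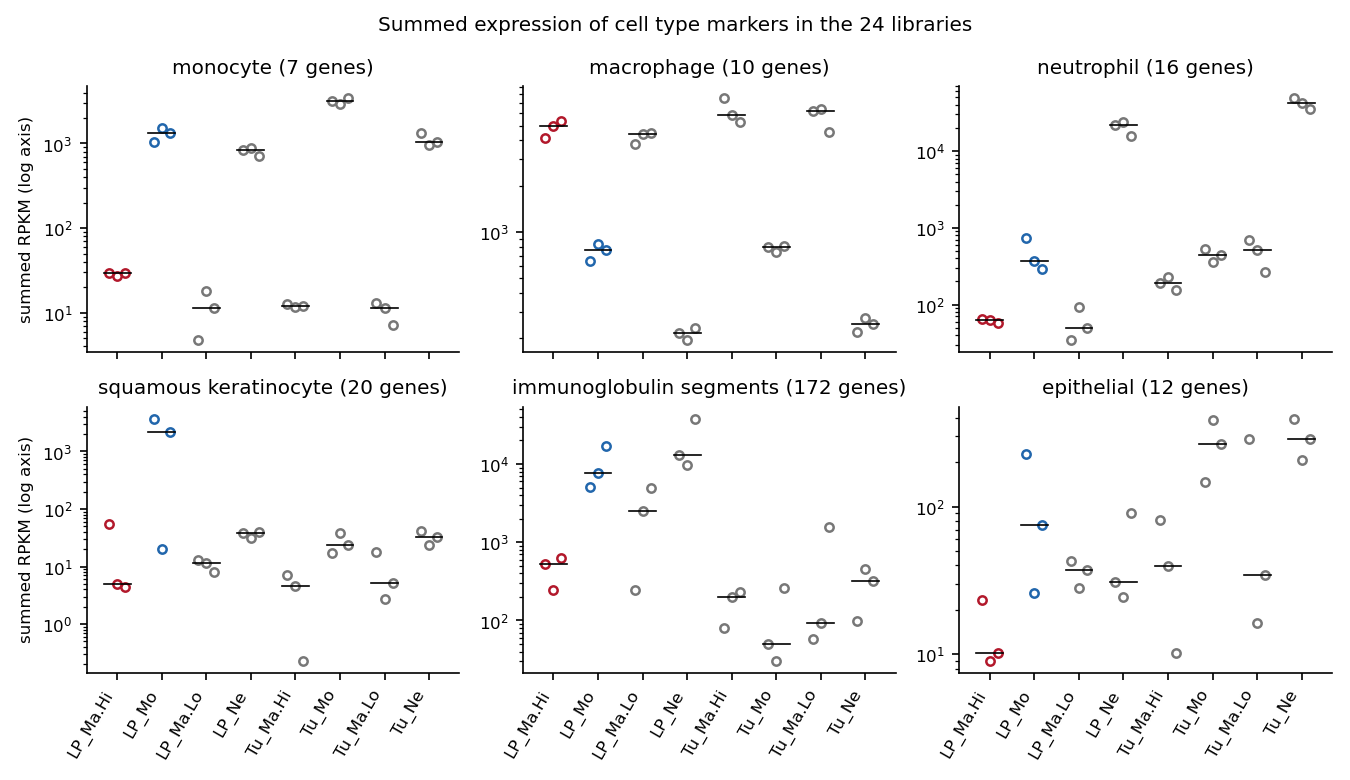
Summed RPKM (log axis) of the markers of 6 cell types in each of the 24 libraries, 1 point per library and a line at the group median, with LP MHCIIhi macrophages in red, LP monocytes in blue and the other sorted groups in grey (Tu for tumour, Ma.Lo for MHCIIlow macrophages, Ne for neutrophils). Monocyte and macrophage markers separate the red and blue points, keratinocyte transcripts are high in LP monocyte libraries III and V (3691 and 2183 RPKM), and immunoglobulin transcripts are high in all 3 LP monocyte libraries.

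Reads counted on genes came to 35.0, 41.7 and 27.7 M in the macrophage libraries and to 20.8, 40.2 and 31.1 M in the monocyte libraries, so depth did not separate the groups. Macrophage libraries correlated with each other at a Spearman rho of 0.964 to 0.967 over genes, monocyte libraries at 0.895 to 0.924, and libraries of different groups at 0.818 to 0.865. Genes are not independent replicates, and these values only describe the libraries.

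Of 12878 genes tested with limma, 1192 were higher in MHCIIhi macrophages (9.26% of genes tested) and 1396 were lower (10.8%), at a Benjamini-Hochberg adjusted p under 0.05. The libraries of both groups did not overlap for 1155 of the genes called higher and 1311 of those called lower. Over all genes tested, called or not, the macrophage libraries lay entirely above the monocyte libraries for 2876 and entirely below for 2813. A change of at least 2 on the log2 scale was seen for 493 genes called higher and 415 called lower, and the median log2 fold change over all genes was -0.00346. The 20 keratinocyte genes held 14 that were lower, of which 4 had groups without overlap and 0 were called with monocyte library IV alone, and 3 were called lower by limma-voom on the recovered reads. Of the 172 immunoglobulin segments 49 were lower and 1 higher. With monocyte library IV alone, 706 genes were higher, of which 596 had been called with all libraries, and 733 were lower, of which 680 had been called.

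**Figure D2:**
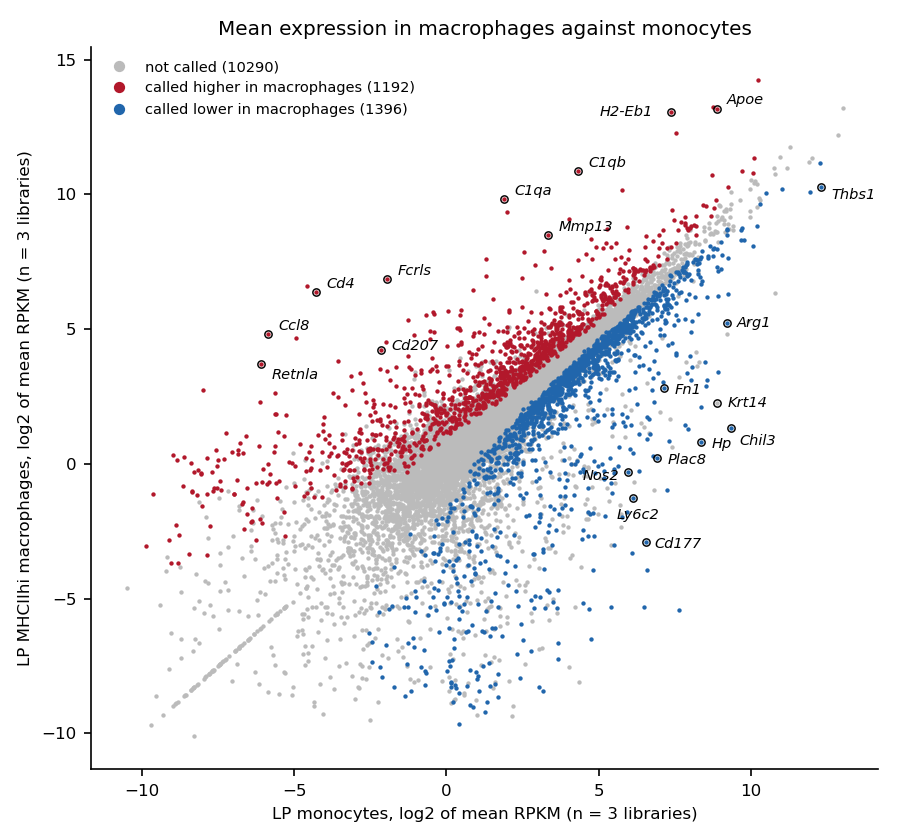
Mean RPKM of each of 12878 genes on a log2 scale in LP monocytes (horizontal) and LP MHCIIhi macrophages (vertical), 3 libraries each, with genes called higher in red (1192), called lower in blue (1396) and the others in grey. C1qa, Cd4 and Apoe lie far above the diagonal and Cd177, Chil3 and Hp far below it, while Krt14 is high in the monocyte mean through libraries III and V.

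Promoter sequences of the genes called were searched for short motifs of factors known from myeloid cells, since many monocyte genes fell and many MHCII genes rose. The PU.1 motif GAGGAAGT (other strand ACTTCCTC) was in 4.36% of promoters of genes called higher and 4.70% of those called lower, against 3.57% of the 11495 promoters of genes tested and 3.20% of all 32851 promoters. The Y box CTGATTGG (other strand CCAATCAG), known from MHCII promoters, was in 4.87% and 5.46%, against 5.19% for genes tested and 4.10% of all. It was in 4 of the 15 promoters of the MHC class II list (26.7%), those of H2-Aa, H2-Eb1, H2-Eb2 and H2-Oa. The CLEAR motif TCACGTGA, which reads the same on both strands and is bound by TFEB, was in 2.18% and 1.59%, against 1.89% for genes tested and 0.974% of all, and in 6 of 56 promoters of the lysosome list (10.7%). The Maf motif TGCTGAC (other strand GTCAGCA) was in 4.19% and 3.72%, against 3.59% for genes tested and 4.67% of all. The C/EBP motif TTGCGCAA, a palindrome, was in 0.419% and 0.228%, against 0.270% and 0.183%. None of these motifs contains another. Neither PU.1 nor the Y box therefore marked one direction of change, and the promoters shown belong, for each motif, to the list members that rose and fell most. All are RefSeq sequences of GRCm38.p6, from 250 bases before to 50 bases after the gene start, written 5′ to 3′ on the gene's strand with the motif in capitals. A match is a description of the letters only. For PU.1 these are C1qc (chr4:136892865-136893164, minus strand, motif on the other strand) and Ly6c2 (chr15:75111922-75112221, minus strand, motif present at 2 positions), and for the Y box H2-Eb1 (chr17:34305617-34305916, plus strand) and Plac8 (chr5:100572156-100572455, minus strand, motif on the other strand).
C1qc: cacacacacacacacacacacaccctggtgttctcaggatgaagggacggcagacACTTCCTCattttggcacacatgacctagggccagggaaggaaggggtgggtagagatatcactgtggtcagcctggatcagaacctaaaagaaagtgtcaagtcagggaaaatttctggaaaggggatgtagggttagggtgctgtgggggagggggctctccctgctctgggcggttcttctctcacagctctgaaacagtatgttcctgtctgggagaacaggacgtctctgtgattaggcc
Ly6c2: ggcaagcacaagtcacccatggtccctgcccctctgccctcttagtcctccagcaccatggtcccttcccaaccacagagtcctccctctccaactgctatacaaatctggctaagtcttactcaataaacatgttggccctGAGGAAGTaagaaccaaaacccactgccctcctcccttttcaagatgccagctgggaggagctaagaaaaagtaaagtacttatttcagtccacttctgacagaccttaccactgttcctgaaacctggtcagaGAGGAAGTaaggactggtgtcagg
H2-Eb1: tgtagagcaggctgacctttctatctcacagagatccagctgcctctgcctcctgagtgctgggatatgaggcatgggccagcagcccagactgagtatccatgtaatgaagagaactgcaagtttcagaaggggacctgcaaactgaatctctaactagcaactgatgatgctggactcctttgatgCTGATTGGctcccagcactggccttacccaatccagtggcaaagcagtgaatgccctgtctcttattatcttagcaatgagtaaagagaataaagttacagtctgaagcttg
Plac8: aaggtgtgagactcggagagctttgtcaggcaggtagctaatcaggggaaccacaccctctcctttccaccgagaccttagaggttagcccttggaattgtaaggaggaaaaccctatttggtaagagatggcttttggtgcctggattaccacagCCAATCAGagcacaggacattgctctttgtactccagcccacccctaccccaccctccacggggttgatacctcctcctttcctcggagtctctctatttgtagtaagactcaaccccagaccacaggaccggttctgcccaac

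The largest rises were in genes that monocytes hardly expressed. Cd4 (ENSMUSG00000023274.10, chromosome 6, 124864692 to 124888221), best known as the T cell coreceptor and also carried by long-lived gut macrophages, stood at 81.7, 77.9 and 88.5 RPKM in macrophages and had 14, 2 and 0 reads in the monocyte libraries. H2-M2, a non-classical MHC class I gene, stood at 81.1, 109 and 102 RPKM and had 2, 4 and 0 reads in monocytes. Tlr12, a receptor for protozoan profilin, stood at 27.3, 23.5 and 26.3 RPKM and had 6, 2 and 0 reads. Each of these rises passed the test (limma adjusted p = 2.37e-05, 4.54e-05 and 6.50e-05), but with so few monocyte reads the size of the fitted change depends on the prior count added to each value, and none is given. Ccl8, a chemokine for monocytes and T cells, stood at 19.9, 26.99 and 37.7 RPKM with 0 reads in every monocyte library and was at least 160-fold higher (limma adjusted p = 1.47e-08). Retnla, a secreted protein of alternatively activated macrophages, stood at 11.7, 11.6 and 15.3 RPKM, again with 0 reads in monocytes, and was at least 85.8-fold higher (limma adjusted p = 6.57e-08), both bounds counting 3 reads per monocyte library. The macrophage libraries of these genes were close to each other and far from every monocyte library.

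Fcrls, an Fc receptor-like scavenger receptor, stood at 112, 113 and 124 RPKM in macrophages with 12, 58 and 0 reads in monocytes, and Cd207, the lectin langerin, at 21.8, 19.4 and 14.4 RPKM with 0, 44 and 0 reads. The monocyte reads of Cd207 were all from library IV, and with that library as the only monocyte library the rise was 4.79 on the log2 scale (limma adjusted p = 0.00694). Folr2, the folate receptor beta of resident macrophages, stood at 31.2, 37.2 and 53.0 RPKM against 1.19, 0.0503 and 0.00821, but 52.4% of its 51-base stretches also occur in the predicted gene Gm10602, so its level is uncertain. Cadm1, an adhesion molecule, stood at 15.97, 12.98 and 12.9 RPKM with 53, 6 and 8 reads in monocytes. Npl, an enzyme of sialic acid breakdown, stood at 10.05, 10.8 and 13.9 RPKM with 14, 0 and 50 reads, and Fblim1, a filamin-binding adaptor, at 15.7, 11.6 and 9.32 RPKM against 0.287, 0.00199 and 0.656. Both Npl and Fblim1 had 0 reads in monocyte library IV, so that the size of their rise depends on it and on the prior count. The log2 rise of Fblim1, 7.37 with all libraries, was 4.78 without that library and 12.55 with it alone, and that of Npl, 7.47 with all libraries, was 11.90 with it alone. C1qa completes the 12 largest rises and is given with the complement genes.

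The largest falls fell into groups by the monocyte library they came from. Cd177, a surface glycoprotein of neutrophils and some monocytes, stood at 94.2, 94.04 and 97.2 RPKM in monocytes and had 22, 22 and 2 reads in macrophages, a log2 change of -9.93 (standard error 0.802, limma adjusted p = 2.80e-08). Chil3 (chromosome 3, 106147554 to 106167564), the chitinase-like protein Ym1, stood at 485, 769 and 698 RPKM in monocytes and 2.802, 1.77 and 2.98 in macrophages, a change of -8.02 (standard error 1.27, limma adjusted p = 1.18e-04). Other genes, mainly Chil4, hold 26.2% of its 51-base stretches. Hp, the haemoglobin scavenger haptoglobin, stood at 271, 369 and 358 RPKM against 1.02, 2.59 and 1.72, and Plac8, a small cysteine-rich protein of monocytes, at 102, 159.8 and 102 against 1.04, 1.11 and 1.37. Egln3, an oxygen sensor that marks HIF-1 alpha for destruction, stood at 15.3, 8.91 and 5.99 RPKM against 0.295, 0.223 and 0.00333. For these genes and Ly6c2 all 3 monocyte libraries were high, whereas the other 5 of the falls given were low in monocyte library IV.

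Gjb2, the gap junction protein connexin 26, stood at 17.1, 2.47 and 18.8 RPKM in monocytes and had 0, 6 and 4 reads in macrophages. Lypd3, a surface protein of squamous epithelium, stood at 40.4, 1.22 and 123 RPKM in monocytes, and Cdh1, the epithelial cadherin, at 21.9, 4.93 and 17.9. Sprr1a, a protein of the cornified envelope, stood at 9.58, 0.293 and 125 RPKM and Cyp2f2, a cytochrome P450, at 17.2, 0.2398 and 16.2. Each was lowest in library IV, as the keratinocyte sum was. With library IV alone none of them was called, with limma adjusted p of 0.278 for Gjb2, 0.401 for Lypd3, 0.0608 for Cdh1, 0.758 for Sprr1a and 0.224 for Cyp2f2. Leaving out 1 library also ended the calls of Gjb2 (macrophage library III or monocyte library V, 0.0744 and 0.0548) and Lypd3 (macrophage library IV, 0.0611). The same held for Sprr1a without any library but monocyte library IV (0.0504 to 0.204).

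**Figure D3:**
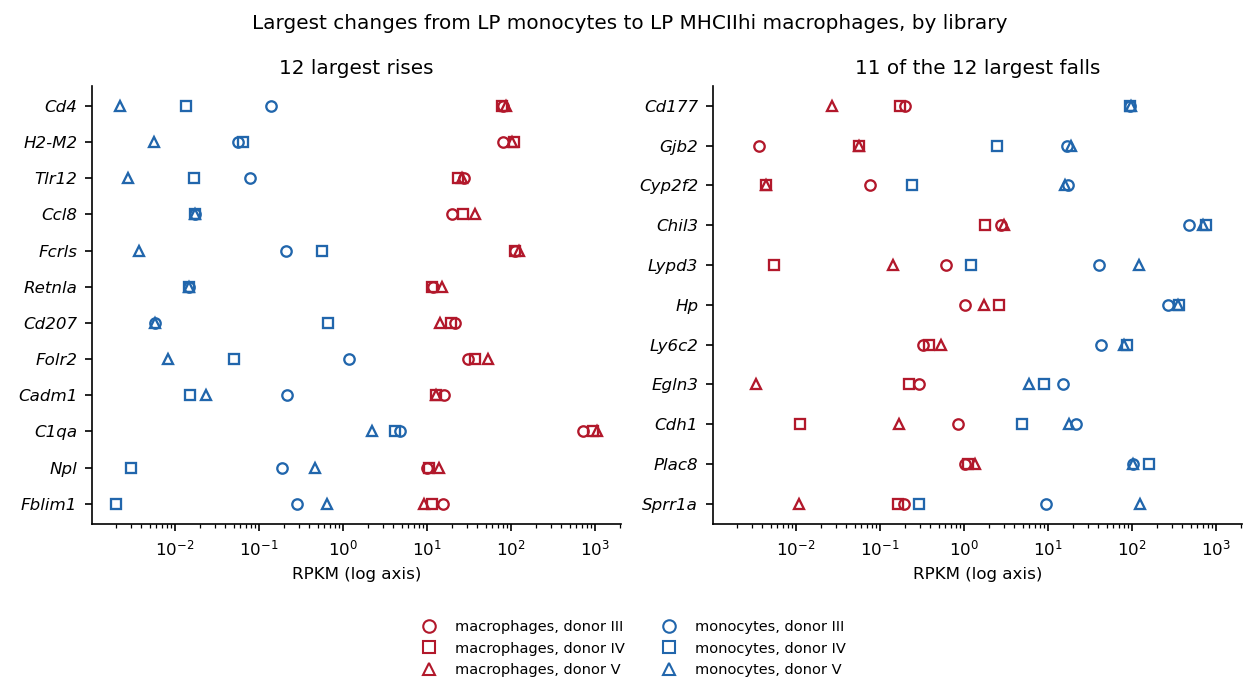
RPKM (log axis) in each library for the 12 genes with the largest rise (left) and 11 of the 12 with the largest fall (right) from LP monocytes (blue) to LP MHCIIhi macrophages (red), with circles, squares and triangles for donors III, IV and V. Libraries without reads stand at the low value set by the prior count, as for Ccl8 and Retnla in monocytes. The blue square of donor IV lies far below the other blue points for Gjb2, Cyp2f2, Lypd3, Cdh1 and Sprr1a.

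Genes were then grouped by lists, whose counts are described beside the 9.26% higher and 10.8% lower of all genes tested. The genes given by value from the lists, and the largest rises and falls above, were chosen only among called genes whose groups did not overlap. Where a lack of overlap is stated for them, the choice had fixed it and it is no finding. Members that make up a count of 5 or fewer are named even where the rule for named genes did not choose them, and were then chosen after their values were seen. Of 34 genes of the monocyte programme, 33 were tested, 29 were lower and 1 was higher in macrophages, with a median log2 change of -2.98 (24 lower and 0 higher with monocyte library IV alone). The list holds Chil3, Hp, Ly6c2 and Plac8, described above, and the exception was Il1r2, a decoy receptor for interleukin-1, which rose by 1.29. Of 34 genes of the gut macrophage programme, 25 were higher and 2 lower, with a median of 2.89 (20 and 1 with library IV alone). Cd72, an inhibitory receptor, stood at 51.7, 48.5 and 47.6 RPKM against 0.1304, 1.55 and 0.517, although it shares 36.6% of its 51-base stretches with Tesk1, and Cd4, Fcrls and Folr2 of this list are described above. The members that fell were Cd9, a tetraspanin, by 0.80, and Il10ra, the interleukin-10 receptor chain, by 0.43. Of 32 macrophage core genes, 15 were higher and 3 lower (Tlr4, Dok3 and Lamp2), with a median of 1.11 (10 and 2 with library IV alone). Pla2g15, a lysosomal phospholipase, stood at 72.3, 74.04 and 84.1 RPKM against 12.4, 15.2 and 12.6, Tbxas1, thromboxane synthase, at 21.9, 21.7 and 22.5 against 4.02, 4.45 and 4.09, and Camk1, a calcium-dependent kinase, at 21.2, 18.1 and 22.6 against 4.502, 3.31 and 5.44. No library of either group crossed the other for these genes.

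**Figure D4:**
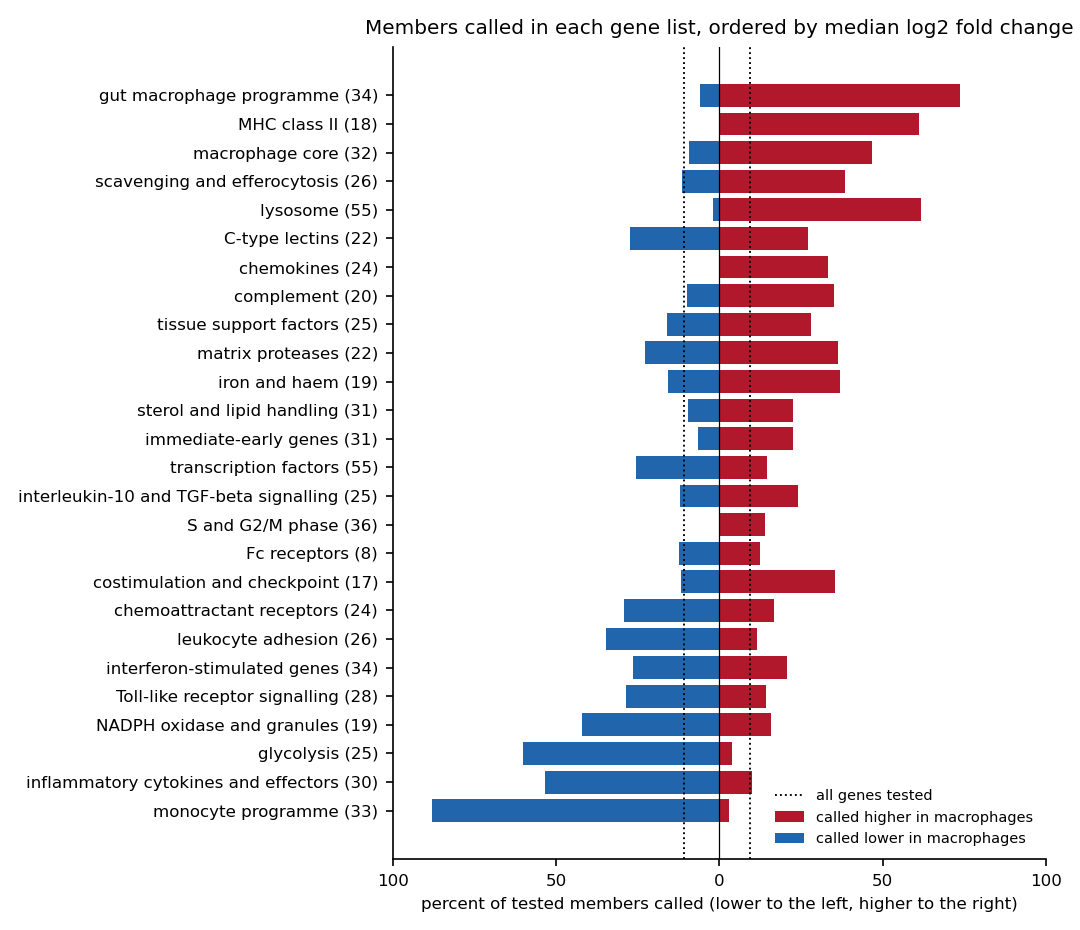
Share of the tested members of each gene list (number tested in brackets) called higher (red, to the right) or lower (blue, to the left) in LP MHCIIhi macrophages than in LP monocytes, ordered by median log2 fold change, with dotted lines at the shares of all genes tested (9.26% and 10.8%). The gut macrophage programme (25 of 34 higher), MHC class II (4 of its 18 genes belong to the sort) and lysosome lists reach furthest right, and the monocyte programme (29 of 33 lower) and glycolysis lists furthest left.

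Complement and uptake receptors rose in part. Of 20 complement genes tested, 7 were higher and 2 lower (C3 and Itgam), with a median of 0.55 (4 and 2 with monocyte library IV alone). C1qa (ENSMUSG00000036887.5, chromosome 4, 136895917 to 136898803) stood at 727, 956 and 1059 RPKM in macrophages and 4.82, 4.199 and 2.23 in monocytes, a log2 rise of 7.99 (standard error 0.32, limma adjusted p = 1.07e-12). C1qb stood at 1524, 1961 and 2127 RPKM against 21.5, 18.95 and 19.2 (rise 6.54, standard error 0.26) and C1qc at 529.8, 661 and 747 against 4.47, 3.98 and 3.41 (rise 7.35, standard error 0.43). The 3 chains of C1q thus rose together, each with every macrophage library above every monocyte library. C3ar1, the receptor for the C3a fragment, stood at 299, 311 and 327 RPKM against 101, 119 and 113, and its call was lost with library IV alone (limma adjusted p = 0.0962). Of 26 genes of scavenging and efferocytosis, the uptake of dying cells, 10 were higher and 3 lower (Cd300lf, Olr1 and Clec7a), with a median of 1.11 (8 and 1 with library IV alone). The kinase receptors for dying cells were among the rises, with Axl at 181, 166 and 155 RPKM against 7.79, 5.04 and 9.88 and Mertk at 11.2, 11.9 and 9.31 against 0.433, 0.557 and 1.06. Their bridging ligand Gas6 stood at 40.4, 40.7 and 45.4 RPKM against 4.51, 0.266 and 2.36, and the mannose receptor Mrc1 at 189, 182 and 205 against 12.7, 22.9 and 24.8. All 4 had been chosen as called and without overlap (limma adjusted p = 5.21e-08, 8.39e-07, 1.76e-05 and 4.09e-04).

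The gut macrophage programme had a larger share of rises (25 of 34), while lysosomal genes, among the longest lists, made the largest number of any list. Of 55 tested, 34 were higher and 1, Lamp2, was lower by 0.45, with a median of 0.78 (20 higher and 0 lower with monocyte library IV alone). Cd63, a tetraspanin of late endosomes, stood at 270.4, 321 and 391 RPKM against 18.98, 26.9 and 35.05 (rise 3.63, standard error 0.25), with 10.8% of its 51-base stretches shared with other genes. Lipa, the acid lipase that frees cholesterol in lysosomes, stood at 201, 198 and 192 RPKM against 28.7, 27.8 and 26.8 (rise 2.83, standard error 0.19), and Naglu, a heparan sulphate-degrading enzyme, at 31.8, 29.9 and 28.4 against 5.49, 8.01 and 5.75. These libraries lay in narrow bands that did not overlap. Ctsf, the protease cathepsin F, stood at 11.4, 8.46 and 14.1 RPKM against 1.01, 0.00449 and 0.673, where monocyte library IV had 0 reads. Its fitted log2 rise of 6.25 was 3.75 without that library and 11.27 with it alone.

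Of 18 genes of the MHC class II list, 11 were higher and 0 lower, but 4 of the 11 (H2-Aa, H2-Ab1, H2-Eb1 and the invariant chain Cd74) belong to the proteins of the sort and are no finding. Of the other 14, 7 were higher and 0 lower, with a median of 1.097 (4 and 0 with monocyte library IV alone). By limma at an unadjusted p under 0.05, 9 of the 14 were higher and 0 lower, and by limma-voom on the recovered reads 10 and 0. H2-DMb2, a chain of the peptide loader H2-DM, stood at 31.8, 33.4 and 29.7 RPKM against 2.17, 0.682 and 1.23, without overlap. Its call (limma adjusted p = 0.0131) was lost without monocyte library IV (0.0532) or with it alone (0.0813), and 25.4% of its 51-base stretches are shared, mainly with H2-DMb1. Of 17 costimulation and checkpoint genes, 6 were higher and 2, Tnfrsf14 and Cd80, were lower (4 and 1 with library IV alone). Cd86, a ligand for CD28 on T cells, stood at 289, 287 and 301 RPKM against 138, 139 and 132, and Cd83, a stabiliser of surface MHCII, at 496, 464 and 619 against 175, 148 and 213. Icosl, the ligand of ICOS, stood at 12.7, 13.9 and 14.99 RPKM against 5.77, 5.39 and 5.81, and Tnfrsf14, the receptor HVEM, fell from 15.2, 11.4 and 15.9 to 4.45, 4.69 and 3.81. With library IV alone the calls of Icosl (limma adjusted p = 0.0700) and Tnfrsf14 (0.0795) were lost.

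Receptors for migration and adhesion changed in both directions. Of 24 chemoattractant receptors, 7 were lower and 4 higher (Cx3cr1, S1pr1, Gpr183 and C3ar1), with a median of -0.19 (5 and 1 with monocyte library IV alone). Ccr2, the receptor through which monocytes leave the bone marrow, fell from 99.7, 117 and 120.4 RPKM to 14.2, 13.001 and 15.5, a log2 change of -2.98 (standard error 0.36, limma adjusted p = 5.34e-06). Ltb4r1, a leukotriene B4 receptor, fell from 133, 152 and 134 RPKM to 10.1, 8.86 and 5.703. The formyl peptide receptors, which sense bacterial peptides, fell too, Fpr1 from 20.2, 37.4 and 27.6 RPKM to 3.38, 2.66 and 5.91 and Fpr2 from 26.8, 36.4 and 31.7 to 3.73, 2.85 and 2.54, with 30.9% of the stretches of Fpr2 shared with other genes. No macrophage library reached a monocyte library for any of these receptors. Of 26 leukocyte adhesion genes, 9 were lower and 3 higher (Vcam1, Itga9 and Itgax), against 4 and 1 with library IV alone. Itgb7, an integrin chain of gut homing, fell from 150.1, 194 and 185 RPKM to 34.3, 40.4 and 33.02. Vcam1, an adhesion ligand for integrins, rose from 7.02, 3.396 and 6.98 RPKM to 221, 218 and 269, a log2 rise of 5.42 (standard error 0.31), and Itga9, an integrin chain that binds it, from 0.709, 1.13 and 1.19 to 23.1, 20.3 and 19.1. The call of Itga9 (limma adjusted p = 0.0388) was lost without any 1 of the 6 libraries (0.0773 to 0.0985), and that of Itgb7 with library IV alone (0.0861).

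Some of the chemokine genes rose, and most of the inflammatory mediators fell. Of 24 chemokine genes, 8 were higher and 0 lower, with a median of 0.71 (5 and 1 with monocyte library IV alone). At an unadjusted p under 0.05 limma had 9 higher and 4 lower, as limma-voom had after adjustment. Pf4, platelet factor 4, rose from 4.02, 12.5 and 10.9 RPKM to 198, 235 and 280.3, and Ccl7, which attracts monocytes, from 7.901, 15.03 and 9.66 to 116, 173 and 175. Cxcl1, which attracts neutrophils, rose from 91.1, 120.3 and 65.7 RPKM to 248, 265 and 292, but its call (limma adjusted p = 0.0128) was lost without monocyte library V (0.0682). With library IV alone Ccl7 and Cxcl1 were not called (0.234 and 0.301). Of 30 inflammatory cytokines and effectors, 16 were lower and 3 higher (Il1r1, Ebi3 and Casp4, none of which was called with library IV alone, where 15 were lower), with a median of -1.36. Nos2, the inducible nitric oxide synthase, fell from 73.9, 68.6 and 44.9 RPKM to 0.535, 1.12 and 0.778, a log2 change of -6.297 (standard error 0.87, limma adjusted p = 2.55e-05). Arg1, arginase 1, which uses the same substrate, fell from 482, 838 and 447 RPKM to 34.3, 29.9 and 47.7. Saa3, an acute phase protein, fell from 20.8, 33.9 and 14.8 RPKM to 0.8397, 0.962 and 0.617, and Osm, the cytokine oncostatin M, from 465, 786 and 575 to 78.05, 77.5 and 80.2. The monocyte libraries lay above all macrophage libraries for each of these 4 genes.

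Sensors of bacterial products and the interleukin-10 and TGF-beta axis were examined next, as the features for which gut macrophages are known. Of 28 Toll-like receptor signalling genes, 8 were lower and 4 higher (Tlr12, Tlr1, Unc93b1 and Cnpy3), with a median of -0.62 and with 7 lower and 2 higher when only monocyte library IV was used. Tlr4, the lipopolysaccharide receptor, fell from 41.8, 63.1 and 55.2 RPKM to 18.04, 15.3 and 18.6, and Tlr2, the lipoprotein receptor, from 180.0, 234 and 148 to 59.4, 55.5 and 72.4. Irak3, a brake on this pathway, fell as well, from 34.6, 42.05 and 33.7 RPKM to 9.74, 12.9 and 10.6. Of 25 genes of interleukin-10 and TGF-beta signalling, 6 were higher and 3 lower (Smad3, Tgfbi and Il10ra), with a median of 0.05 (3 and 3, with a median of -0.04, with library IV alone). Il10 (ENSMUSG00000016529.5, chromosome 1, 131019845 to 131024974) rose from 12.4, 17.6 and 15.3 RPKM to 71.1, 87.2 and 92.6, a log2 rise of 2.47 (standard error 0.39, limma adjusted p = 1.24e-04). Tgfbr2, the receptor chain that binds TGF-beta, rose from 5.82, 5.84 and 6.07 RPKM to 32.6, 36.6 and 28.9, and its partner Tgfbr1 from 12.2, 9.51 and 9.26 to 53.1, 53.2 and 58.8. Groups did not overlap for Il10, Tgfbr2 or Tgfbr1. Eng, the coreceptor endoglin, rose from 8.31, 9.098 and 8.695 RPKM to 28.01, 32.6 and 30.8, but its call (limma adjusted p = 0.0198) was lost without macrophage library IV or V or monocyte library III or V (0.0529 to 0.0618) and with library IV alone (0.202).

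Most glycolysis genes fell, while most genes of lipid handling were not called. Of 25 glycolytic enzymes and transporters, 15 were lower and 1, Aldoc, was higher by 2.45, with a median of -0.86 (13 lower and 1 higher with monocyte library IV alone). Slc16a3, a lactate exporter, fell from 165, 216 and 184 RPKM to 18.8, 15.3 and 15.7, a log2 change of -3.502 (standard error 0.18, limma adjusted p = 7.14e-11). Pfkl, a phosphofructokinase, fell from 45.2, 46.8 and 38.2 RPKM to 12.8, 9.17 and 10.2, Eno1, an enolase with 25.9% of its stretches shared mainly with Eno1b, from 163, 212 and 185 to 46.5, 45.4 and 45.01, and Slc2a6, a hexose transporter, from 37.98, 41.2 and 44.4 to 10.5, 9.91 and 15.1. Hif1a, a transcription factor that drives glycolytic genes, fell from 262, 333 and 263 RPKM to 76.02, 72.4 and 72.5. All 5 fell without overlap. Of 31 genes of sterol and lipid handling, 7 were higher and 3 lower (Fdft1, Plin2 and Nr1h2), with a median of 0.25 (6 and 2 with monocyte library IV alone). Apoe, the lipid carrier of macrophages, rose from 361, 424 and 621 RPKM to 8299, 9253 and 10462, a log2 rise of 4.35 (standard error 0.35). Pltp, a phospholipid transfer protein, rose from 22.02, 39.2 and 29.3 RPKM to 273, 259 and 263, with 10.7% of its stretches shared with Ctsa, and Lpl, lipoprotein lipase, from 1.51, 1.13 and 2.12 to 10.2, 12.1 and 8.99.

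Of 19 genes of iron and haem metabolism, 7 were higher and 3 lower (Lcn2, Tfrc and Ireb2), with a median of 0.39 (5 and 1 with monocyte library IV alone). Blvrb, a biliverdin reductase, rose from 4.898, 9.77 and 11.03 RPKM to 30.6, 37.5 and 47.2, and Slc48a1, which carries haem out of lysosomes, from 16.04, 18.5 and 13.9 to 43.3, 42.1 and 45.7. Slc11a2, the iron transporter DMT1, rose from 14.4, 14.4 and 12.4 RPKM to 52.6, 53.8 and 48.2, and Hfe, a regulator of iron uptake, from 10.4, 7.51 and 6.41 to 25.96, 26.4 and 27.7. Each gene lay higher in all 3 macrophage libraries. Lcn2, the siderophore-binding lipocalin 2, and Tfrc, the transferrin receptor, were among the falls.

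Genes that act on the surrounding tissue changed in both directions. Of 22 matrix proteases and related genes, 8 were higher and 5 lower (Mmp8, Mmp7, Adam8, Adam10 and Plaur), with a median of 0.41 (6 and 4 with monocyte library IV alone). Mmp13, a collagenase, rose from 6.85, 15.05 and 8.43 RPKM to 361, 366 and 354, a log2 rise of 5.24 (standard error 0.33, limma adjusted p = 1.49e-09), whereas Mmp8, the collagenase of neutrophils, fell from 34.4, 40.7 and 32.1 to 0.795, 0.993 and 0.732. Mmp2, a gelatinase, rose from 2.04, 1.21 and 2.33 RPKM to 33.4, 26.04 and 28.2, and Adamdec1, a metalloprotease of gut macrophages, from 1.102, 1.11 and 1.86 to 50.1, 45.3 and 42.4. Of 25 tissue support factors, 7 were higher and 4 lower (Fn1, Thbs1, Tgfbi and Cd9), against 5 and 3 with library IV alone. The matrix proteins fell, fibronectin (Fn1) from 126, 149 and 148 RPKM to 7.903, 6.83 and 6.51 and thrombospondin 1 (Thbs1) from 4287, 5989 and 4796 to 1197, 1268 and 1299.9. Of the secreted factors of the TGF-beta family, Gdf15 rose from 1.94, 6.88 and 2.01 RPKM to 25.5, 39.5 and 27.8, and Gdf3 from 0.378, 0.282 and 1.505 to 7.85, 14.3 and 23.3. With library IV alone the log2 rise of Gdf15 was 2.14 in place of 3.34. The call of Gdf3 (limma adjusted p = 0.0372) was lost without any library but monocyte library V (0.0581 to 0.117) and with library IV alone (0.139).

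Lectins, Fc receptors and effector genes of granules split as follows. Of 22 C-type lectins, 6 were higher and 6 lower, with a median of 0.73 (4 and 3 with monocyte library IV alone). Mgl2, a galactose-type lectin of alternatively activated macrophages, rose from 1.14, 3.87 and 2.45 RPKM to 122, 128 and 129, with 12.7% of its stretches shared mainly with Clec10a, and was not called with library IV alone (limma adjusted p = 0.214). Clec5a, an activating lectin of monocytes and neutrophils, fell from 63.8, 85.8 and 71.6 RPKM to 10.7, 11.7 and 9.67. Of 8 Fc receptor genes, Fcrls was called higher and Pigr, the epithelial carrier of IgA, lower, the latter not with library IV alone. Of 19 genes of the NADPH oxidase and granules, 8 were lower and 3 higher (Alox5, Ltc4s and Lyz1), with a median of -0.70 (6 and 2 with library IV alone). Alox5ap and Lta4h, partners in leukotriene synthesis, fell from 187, 259 and 242 RPKM to 32.1, 44.4 and 49.5 and from 41.9, 50.96 and 38.05 to 20.6, 24.7 and 19.5. Lyz1, a lysozyme gene with 15.4% of its stretches shared with Lyz2, rose from 10.98, 16.5 and 21.9 RPKM to 103, 104 and 132.

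Transcription factors, interferon genes and early response genes followed no single direction. Of 55 transcription factors, 14 were lower and 8 higher, with a median of 0.07 (7 and 4, with a median of -0.21, with monocyte library IV alone). Id1, an inhibitor of helix-loop-helix factors, fell from 11.3, 11.1 and 11.2 RPKM to 1.74, 2.55 and 2.54, and Irf2, an interferon regulatory factor, from 26.7, 27.8 and 28.5 to 9.31, 12.5 and 7.55, while Klf2, a Krüppel-like factor, rose from 3.21, 2.52 and 5.601 to 15.2, 17.4 and 18.5. Of 34 interferon-stimulated genes, 9 were lower and 7 higher, with a median of -0.50 (4 and 0 with library IV alone). Gbp2, a guanylate-binding protein, fell from 435, 262 and 228 RPKM to 37.1, 52.3 and 50.9 and Zbp1, a nucleic acid sensor, from 35.1, 33.8 and 23.97 to 12.4, 10.7 and 8.23, while Oasl1, an oligoadenylate synthetase-like gene, rose from 47.6, 78.5 and 32.3 to 214, 241 and 159. Oas3, which senses double-stranded RNA, fell from 22.2, 30.9 and 21.5 RPKM to 4.93, 7.997 and 3.78, and its call (limma adjusted p = 0.0272) was lost without any library but macrophage library IV (0.0536 to 0.101). None of these 4 genes was called with library IV alone (0.0590 to 0.231). Of 31 immediate-early genes, which respond within minutes to stress and tissue digestion, 7 were higher and 2 lower (Fosl2 and Ier5), with a median of 0.19 (2 and 1 with library IV alone). Fosb rose from 25.1, 23.3 and 21.5 RPKM to 87.9, 87.9 and 75.4. Gadd45b rose from 48.4, 71.9 and 57.6 RPKM to 104, 120.3 and 123, with its call lost without monocyte library III (0.0604) and with library IV alone (0.323). Hspa1a, a heat shock gene that shares 66.1% of its stretches with Hspa1b, rose from 15.3, 12.5 and 12.4 RPKM to 40.8, 52.2 and 61.2, with its call lost without macrophage library V (0.0556) and with library IV alone (0.133). Of 36 S and G2/M phase genes, 5 were higher (Gins2, Mcm2, Mcm6, Mcm3 and Mki67) and 0 lower, with a median of 0.02. With library IV alone 5 were higher, of which 3 had been called with all libraries, and 0 lower. At an unadjusted p under 0.05 limma had 6 higher and 3 lower, and limma-voom after adjustment 6 and 0.

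The step in LP was then set against the same step in tumours, which shares no library with it. In tumours 1748 genes were higher (13.6%) and 2383 lower (18.5%) in MHCIIhi macrophages than in monocytes. Of the genes higher in LP, 765 were higher in tumours, 64.2% of the LP list and 43.8% of the tumour list, and of the genes lower in LP, 938 were lower in tumours, 67.2% and 39.4%. In opposite directions 33 genes were called. C1qa rose by 7.99 in LP and 7.68 in tumours, a difference of 0.31 (standard error 0.46, limma adjusted p = 0.834), and Apoe by 4.35 and 4.56. The fall of Nos2 was -6.297 and -4.91, and that of Slc16a3 -3.502 and -3.23, with differences that were not called. Of the genes lower in LP with at least 10 RPKM in LP monocytes, 904 in all, 53 stood under 1 RPKM in tumour monocytes. Among these 53, 36 were immunoglobulin segments and 9 belonged to the keratinocyte list, which in LP are the transcripts described with the libraries. The 10 fibroblast markers summed to 9.09 to 24.9 RPKM in LP macrophages and 15.4 to 33.4 in LP monocytes. In tumours they came to 0.802 to 1.82 RPKM in macrophages and 0.958 to 1.03 in monocytes. The 12 epithelial markers came to 10.2 to 81.2 RPKM in tumour macrophages and 146 to 389 in tumour monocytes. The part of these transcripts in the differences between the steps was not tested.

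The difference between the steps was itself tested, and 530 genes had a higher step in LP (4.12% of genes tested) and 212 a lower one (1.65%). With LP monocyte library IV alone these counts were 222 and 71. Il10, with the LP values given above, was not called in tumours (limma adjusted p = 0.578), where monocytes (donors I, II and V) stood at 37.8, 36.4 and 38.1 and macrophages (donors I, V and VII) at 95.7, 37.3 and 28.6, so that the tumour groups overlapped. The difference between its steps was 2.15 on the log2 scale (standard error 0.56, limma adjusted p = 0.02401). Its call was lost without LP macrophage library IV or V, LP monocyte library III, tumour macrophage library V or VII or tumour monocyte library I (0.0511 to 0.0782) and with LP monocyte library IV alone (0.216). Cd86 rose by 1.099 in LP and 0.196 in tumours, a difference of 0.903 (limma adjusted p = 0.0132). This call was lost with library IV alone (0.111) and with the donor as a fixed replicate block (0.0588). Lyz1 rose by 2.82 in LP, and in tumours stood at 33.9, 23.3 and 21.9 RPKM in monocytes and 25.3, 11.7 and 6.76 in macrophages. Slc48a1 and Oasl1 also rose in LP and were not called in tumours (0.724 and 0.588), with differences of 1.34 and 2.4005. The difference of Slc48a1 was lost with library IV alone (0.126), as was that of Oasl1 (0.359), which was also lost without any 1 of 8 of the 12 libraries (0.0641 to 0.109). Retnla had 0 reads in all tumour libraries of both groups, so its rise in LP has no tumour counterpart and no fold.

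Several monocyte genes fell further in tumours than in LP. Itgb7 stood at 160.0, 137 and 126 RPKM in tumour monocytes and 0.282, 0.959 and 1.02 in tumour macrophages, a difference between the steps of 5.46 (standard error 0.81, limma adjusted p = 2.90e-04). Ltb4r1 stood at 218, 158 and 190.4 RPKM and 0.608, 1.14 and 0.253 there (difference 4.26, standard error 0.52), and Thbs1 at 6375, 5301 and 5454 and 421, 407 and 263 (difference 2.01). All 3 genes were higher in every LP macrophage library than in any tumour macrophage library. The call of the Thbs1 difference (limma adjusted p = 0.0494) was lost without any 1 of the 12 libraries (0.0548 to 0.129) and with library IV alone (0.317). Has1, a hyaluronan synthase, stood at 5.81, 2.86 and 3.53 RPKM in LP macrophages and 8.45, 3.06 and 9.61 in LP monocytes, with overlap, and at 13.3, 5.64 and 24.02 in tumour monocytes with 0 reads in all tumour macrophage libraries. F5, coagulation factor V, stood at 0.285, 0.187 and 0.143 RPKM in LP macrophages, 12.6, 9.45 and 8.95 in LP monocytes and 10.7, 6.22 and 11.6 in tumour monocytes, again with 0 reads in tumour macrophages. Serpinb2, a plasminogen activator inhibitor, and Fam20a, a secretory pathway pseudokinase, had 0 reads in 2 of 3 tumour macrophage libraries. The LP macrophage libraries held 4.92, 3.49 and 3.44 RPKM of Serpinb2 and 1.26, 2.14 and 1.02 of Fam20a, against 41.5, 35.8 and 124 and 6.51, 8.47 and 5.96 in LP monocytes. The sizes of the last 4 differences depend on the prior count, and only their calls are meant (limma adjusted p = 4.58e-04, 0.00229, 0.0106 and 1.30e-04), and that of Serpinb2 was lost with LP monocyte library IV alone (0.0690). The call of F5 was lost with both larger pseudocounts (adjusted p up to 0.861).

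Other genes rose further in tumours. Hpgds, the prostaglandin D synthase of macrophages, stood at 72.5, 68.3 and 69.9 RPKM in LP and 53.5, 60.1 and 64.8 in tumour macrophages, but at 2.55, 2.997 and 3.14 in LP and 0.235, 0.219 and 0.0455 in tumour monocytes, a difference of -4.195 (standard error 0.55, limma adjusted p = 1.01e-04). Hpgds was higher in every LP library than in any tumour library of the same cell type, by far more in monocytes than in macrophages. Adamdec1 reached 287, 246 and 117 RPKM in tumour macrophages, a difference between the steps of -4.93, Mmp2 reached 106, 118 and 109, a difference of -3.65, and Vcam1 464, 413 and 437, a difference of -2.38. Each of these differences also takes in the monocytes of both tissues. Each is larger than the gap between LP and tumour macrophages, so it is not the macrophage change alone. Mfge8, a bridge between dying cells and phagocytes, stood at 11.5, 8.16 and 7.88 RPKM in LP macrophages and 33.1, 7.03 and 11.2 in LP monocytes, with overlap, and at 56.04, 90.2 and 44.2 and 5.21, 8.99 and 6.87 in tumours (difference -3.75). Cp, the ferroxidase ceruloplasmin, rose from 0.383, 0.2098 and 0.0642 to 2.77, 2.68 and 4.06 RPKM in LP and stood at 11.1, 11.3 and 19.9 in tumour macrophages. Bhlhe41, a helix-loop-helix factor, stood at 1.13, 1.22 and 1.84 RPKM in LP and 11.4, 8.69 and 12.1 in tumour macrophages. For Cp and Bhlhe41 too, the difference between the steps takes in the monocytes of both tissues. The sizes of the differences of Hpgds, Adamdec1, Cp and Bhlhe41 varied widely over the alternatives, for Adamdec1 from -5.44 to -3.05, and are uncertain. With LP monocyte library IV alone the differences of Adamdec1 (0.0807), Mmp2 (0.0767), Vcam1 (0.0947), Mfge8 (0.0754) and Cp (0.0952) were not called. That of Adamdec1 was also lost by limma-voom on the recovered reads (adjusted p = 0.201). That of Cp was also lost without LP monocyte library III (0.0501) or tumour monocyte library I (0.0523). Of the S and G2/M genes, 19 of 36 were higher in tumour macrophages than tumour monocytes, with a median of 2.03, against 5 and 0.02 in LP, and the difference between the steps was called for 4 of the 36.

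**Figure D5:**
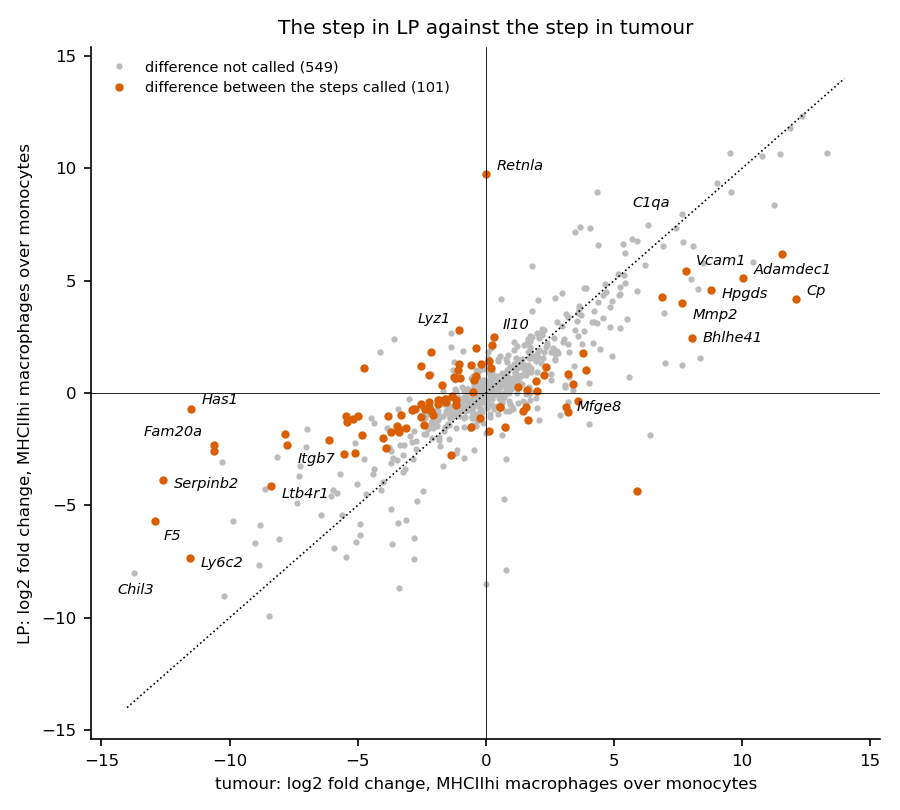
Log2 fold change of MHCIIhi macrophages over monocytes in LP (vertical) against the same in tumours (horizontal) for the 650 genes of the lists and the named genes, with the 101 genes whose difference between the steps was called in orange and a dotted line where both steps are equal. Retnla, Il10 and Lyz1 lie above the line with no call in tumours, Cp, Hpgds, Mmp2 and Vcam1 lie below it, and C1qa lies near it.

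MHCIIhi macrophages were last compared with MHCIIlow macrophages of LP, which share the F4/80 gate and differ by MHCII. Over all genes tested, 717 were higher in MHCIIhi macrophages (5.57%) and 274 lower (2.13%). Of the genes of the monocyte to macrophage step, 314 were higher and 117 lower. Among genes that rose in the step, 163 were higher in MHCIIhi than MHCIIlow macrophages and 32 lower, and among those that fell, 151 were higher and 85 lower. Both comparisons use the same MHCIIhi libraries, so nothing is read from these overlaps. With the donor as a fixed replicate block, the count of 117 became 69, while 242 were higher.

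The MHCII genes separated the subsets as the sort requires, H2-Eb1 with 66.9, 598 and 352 RPKM in the MHCIIlow libraries of donors II, III and IV. Of the genes named above, several of the monocyte end of the step were lower still in MHCIIlow macrophages. Ccr2 stood at 1.004, 2.702 and 1.68 RPKM there against 14.2, 13.001 and 15.5 in MHCIIhi macrophages, a difference of 3.097 (standard error 0.36, limma adjusted p = 2.54e-05). Ltb4r1 stood at 1.23, 1.87 and 1.79 RPKM (difference 2.31), Thbs1 at 152, 428 and 434 (difference 2.04) and Slc16a3 at 6.29, 10.5 and 8.33 (difference 1.01). MHCIIhi macrophages thus lay between MHCIIlow macrophages and monocytes in these 4 genes. Of the genes that rose in the step, Mmp13 stood at 48.5, 97.5 and 82.8 RPKM in MHCIIlow macrophages (limma adjusted p = 1.83e-04), Axl at 21.97, 60.8 and 46.96 (difference 2.07), Mmp2 at 1.98, 11.7 and 6.496 (difference 2.45) and Cd86 at 131, 144 and 151 (difference 1.04), each below all MHCIIhi libraries. In the other direction, Pf4 stood at 660.2, 609 and 623 RPKM in MHCIIlow macrophages (difference -1.42, limma adjusted p = 0.0483), Alox5ap at 210.0, 118 and 142 (difference -1.88), Saa3 at 1.61, 23.9 and 8.43 (difference -3.11) and Arg1 at 42.9, 260.3 and 439 (difference -2.22). Of these 4 only Arg1 overlapped between the subsets. Saa3 and Arg1 were lowest in MHCIIlow library II. Immunoglobulin segments summed to 243, 2495 and 4943 RPKM in MHCIIlow libraries II, III and IV, against 248 to 630 in MHCIIhi libraries. Fibroblast markers came to 22.4, 73.1 and 66.9 RPKM there, against 9.09 to 24.9, and reads on genes to 31.3, 15.4 and 12.8 M. The part of these in the differences between the subsets was not tested. C1qa differed by 0.02 between the subsets (limma adjusted p = 0.998), within a standard error of 0.32.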

How the data were processed

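RNA of sorted cells had been amplified with SMARTSeq v2 and sequenced without strand information, and per the labels reads were aligned to GRCm38 (mm10). The submitters' processing notes name STAR 2.3, featureCounts 1.5 and edgeR. The deposited values are log2 RPKM of 17301 genes in 24 libraries, which the authors computed with a prior count. From their steps, 100% of values gave whole reads (tolerance 0.002 reads), with a prior of 0.25 reads. RPKM was read back from the log2 values, and 17190 gene identifiers matched GENCODE M21.

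limma 3.58.1 (R 4.3.3) fitted 8 group means over all 24 libraries to the 12878 genes with a mean of at least 1 RPKM in at least 1 group, with a variance trend, Benjamini-Hochberg adjustment over all genes and a threshold of 0.05. Tables and figures used Python 3.11.15, pandas 2.3.3 and matplotlib 3.10.9. Contrasts were the LP step, its difference from the tumour step, and MHCIIhi against MHCIIlow macrophages. Donor numbers pair LP samples by their labels, and deviations of the same donor correlated across genes at 0.165 (III), 0.107 (IV) and -0.00744 (V). Fits with the donor as replicate block were alternatives, as were another pseudocount, filter, scaling, sample set, array weights, limma-voom on the recovered reads, and leaving out each library. Fits without LP monocyte libraries III and V were added after the data were seen.

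Named genes were the 12 largest rises and 12 largest falls, the 4 largest changes of each of the gene lists, and the 5 largest differences between the steps in each direction. They had to be called and to have a group mean of at least 10 RPKM, and those of the step also groups without overlap. Of these genes, 2 are not reported here. The members and lists were chosen with earlier results of these data known. Shared 51-base stretches were counted on GENCODE transcripts.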

Additional observations from a re-analysis of the deposited data

Results flagged for a closer look

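The step from monocytes to MHCIIhi macrophages differed between LP and tumours by the test of the difference for 530 genes with a higher and 212 with a lower step in LP. Values are differences of log2 fold changes, LP minus tumour, by limma with Benjamini-Hochberg adjustment, and the causes were not tested.

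For the genes chosen for the largest differences these were 10.79 (standard error 1.68) for Has1, 9.75 (1.195) for Retnla, 8.72 (1.98) for Serpinb2, 8.30 (1.14) for Fam20a and 7.21 (1.34) for F5. All 5 have tumour macrophage libraries with 0 reads, so the sizes depend on the prior count. In the other direction they were -7.95 (1.94) for Cp, -5.603 (1.24) for Bhlhe41, -4.93 (1.02) for Adamdec1, -4.195 (0.55) for Hpgds and -3.75 (0.73) for Mfge8. These sizes are uncertain too, although none changed direction. Over the alternatives Cp ran from -9.67 to -2.09, Bhlhe41 from -6.98 to -2.74 and Adamdec1 from -5.44 to -3.05. The size for Hpgds also varied widely, and Mfge8 ran from -4.23 to -2.78.

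Of the genes named from lists, the adhesion and migration genes Itgb7 and Ltb4r1 differed by 5.46 and 4.26, and Vcam1 by -2.38. Ly6c2, which also marks the sort, differed by 4.17 (limma adjusted p = 0.04603). This call was lost without any 1 of 11 of the 12 libraries (0.0595 to 0.113) and with LP monocyte library IV alone. It was also lost with both larger pseudocounts, without the filter, with only the libraries compared, by limma-voom and with the fixed block. Over the alternatives the difference of Ly6c2 ran from 0.285 to 5.53, so its size is uncertain. Lyz1 differed by 3.86, Oasl1 by 2.4005, Il10 by 2.15 and Thbs1 by 2.01. Irak3 differed by 1.66, with the call lost with library IV alone (0.0574). Slc48a1 differed by 1.34 and Cd86 by 0.903. Alox5ap differed by 1.44, with the call lost without any 1 of 7 libraries (0.0506 to 0.0910). Irf2 differed by -0.96, lost without any 1 of 8 libraries (at most 0.0904), and Tnfrsf14 by -1.83, lost without any 1 of 6 (0.0542 to 0.0597). Clec5a differed by -1.43 and Mmp2 by -3.65.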

How the results depend on the processing

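Of the 109 named changes from monocyte to macrophage, 83 kept direction and call under all alternatives, 26 lost the call under at least 1 and 0 reversed, and of the 26 named differences between the steps 9 kept their call. The causes of the following changes were not tested. With log2(RPKM + 1), 471 genes had a lower step in LP and 201 genes of the step were lower in MHCIIhi than MHCIIlow macrophages (212 and 117 in the report). Quantile normalization gave 177 of the latter. With only the libraries compared, 334 genes had a lower step in LP, and Ctsf and Fblim1 lost their calls. Array weights gave 1821 genes higher in the step, 847 and 482 step differences, and 219 genes lower against MHCIIlow. limma-voom on the recovered reads gave 2084, 364 lower step differences and 227. Without LP monocyte libraries III and V, chosen after the data were seen, the step had 706 and 733 genes and the difference 222 and 71.

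With the donor as a fixed replicate block, 69 genes of the step were lower against MHCIIlow, and the step differences of Alox5ap (0.0624), Cd86 (0.0588) and Ly6c2 (0.127) lost their calls. The block changed no other call of a named gene for the step or the step difference, and gave 1239 higher and 1553 lower genes in the step. Calls of single genes against MHCIIlow were not checked under the alternatives. With 1 library left out, the step had 860 to 1015 higher and 1041 to 1174 lower genes, and the difference 393 to 556 and 143 to 242. Against MHCIIlow these were 206 to 311 and 59 to 121, with the lowest counts without MHCIIhi library III (206 and 59) or IV (206 and 62) or MHCIIlow library II (207 and 60), and 68 lower without MHCIIlow library IV. The F5 and Ly6c2 differences were lost with both larger pseudocounts. Where a group has 0 reads, depth limits the size of a change, and a fitted value printed for such a gene is no measure of it.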

Other observations

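Markers of the remaining cell types checked were at low or overlapping levels in the MHCIIhi macrophage and monocyte libraries of LP, apart from B and plasma cell and endothelial genes. The 10 measured B and plasma cell markers summed to 224 to 238 RPKM in macrophages and 719 to 1211 in monocytes, with 2 of the 8 tested called lower. Tumour monocytes summed to 406 to 540 RPKM on this list, although their immunoglobulin segments came to only 30.3 to 261. The list includes Xbp1, so its sum need not stand for B and plasma cells alone. Endothelial markers, 8 genes, summed to 1.14 to 1.40 RPKM in macrophages and 3.81 to 5.52 in monocytes, and none of the 3 tested was called by limma, although 2 were lower at an unadjusted p under 0.05 and by limma-voom. The 10 fibroblast markers summed to 9.09 to 24.9 RPKM in macrophages and 15.4 to 33.4 in monocytes. The 5 measured eosinophil markers came to 3.17 to 6.40 RPKM and 4.12 to 35.4, the latter high in library III through Alox15 (32.9 RPKM) and not through the other markers. Mast cell markers, 8 genes, came to 1.74 to 2.79 and 1.60 to 1.72 RPKM, and the 4 measured erythroid markers to 0.149 to 0.231 and 0.120 to 0.402. The part of these transcripts in the results was not tested.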
